A study of Arabidopsis thaliana with 9 samples.

Results

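The AGO4-bound transcripts described here were called on 1 DNA strand only and coincide with a Pol V transcript of that strand. They were chosen from positions alone: an AGO4-bound transcript was taken when no AGO4-bound transcript of the other strand overlapped it and when its own strand carried a Pol V transcript sharing 1 bp or more of it. Of 3940 AGO4-bound transcripts, 1051 met this rule, and Pol V also had a transcript on the other strand at 496 of them. The Pol V transcript of the same strand with the longest overlap is called the partner. The smallest overlap among the 1051 was 81 bp, at AGO4_Trans1952, and it was the 1 overlap under 100 bp. Just outside the rule, 8 single-strand AGO4-bound transcripts had a Pol V transcript of their strand within 200 bp without touching it. The nearest of these, AGO4_Trans819, was 3 bp away and had 0 AGO4 reads in *ago4* and 13 in Col-0.

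The RNA came from the aerial part of *Arabidopsis thaliana* plants grown in soil under long days for about 2.5 weeks and fixed with formaldehyde, so that RNA held in a protein complex could be pulled down from nuclei with an antibody. For Pol V RIP-seq the antibody recognised NRPE1, the catalytic subunit of Pol V, and the plants were *nrpe1* (allele *nrpd1b-11*), which lacks it, and Col-0 wild type, with 2 biological repeats each. AGO4 RIP-seq used an antibody against AGO4 in *ago4* (allele *ago4-1*, introgressed into Col-0) and in Col-0, with 1 library each. Sequencing was strand-specific with paired 50 bp reads. On the listed Pol V transcripts, *nrpe1* repeats 1 and 2 held 3049 and 1980 reads and the Col-0 repeats 251106 and 189141. On the listed AGO4-bound transcripts, *ago4* had 6245 reads and Col-0 had 118313. The read totals of the whole libraries were not used here. Reads were therefore compared at equal depth, and without molecular identifiers the intervals below cover counting error or the spread over transcripts only. Both lists had been selected on these libraries for more reads in Col-0 than in the mutant, so the genotype differences below are descriptions.

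RNA-directed DNA methylation silences transposons and other repeats in plants. In this pathway Pol IV makes precursors that are cut into siRNAs, AGO4 is loaded with these siRNAs, and Pol V makes longer noncoding RNA from the target locus itself. Base-pairing of the siRNA with this scaffold RNA, together with contacts between AGO4 and Pol V, is thought to hold AGO4 at the locus, where the methyltransferase DRM2 is brought in and cytosines are methylated, the CHH context (H is A, C or T) being typical of it. AGO4 RIP-seq recovers longer RNA crosslinked with AGO4, directly or through other molecules. The strand of a called transcript shows where enough AGO4 reads were recovered for a call. AGO4 reads on the other strand were not counted here, so RNA below the limit of calling may be present there.

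Short members with the densest AGO4 reads give the most compact view of such RNA. The 4 members of at most 300 bp with the most AGO4 reads per 100 bp in Col-0 are printed whole, in the direction of transcription, as DNA from the RefSeq TAIR10.1 sequence, whose nuclear chromosomes carry the coordinates of TAIR10. Capitals mark the bases shared with the partner. They lie at chr5:19026535-19026751 (AGO4_Trans3686, plus strand), chr3:16647218-16647511 (AGO4_Trans2163, minus strand), chr5:22491832-22492031 (AGO4_Trans3803, minus strand) and chr1:9335441-9335643 (AGO4_Trans299, plus strand).
AGO4_Trans3686: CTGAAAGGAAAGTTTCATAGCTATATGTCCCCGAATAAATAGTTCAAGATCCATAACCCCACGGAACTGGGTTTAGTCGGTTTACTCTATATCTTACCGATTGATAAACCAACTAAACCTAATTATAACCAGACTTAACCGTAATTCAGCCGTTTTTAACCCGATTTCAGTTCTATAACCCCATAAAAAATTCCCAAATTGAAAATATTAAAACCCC
AGO4_Trans2163: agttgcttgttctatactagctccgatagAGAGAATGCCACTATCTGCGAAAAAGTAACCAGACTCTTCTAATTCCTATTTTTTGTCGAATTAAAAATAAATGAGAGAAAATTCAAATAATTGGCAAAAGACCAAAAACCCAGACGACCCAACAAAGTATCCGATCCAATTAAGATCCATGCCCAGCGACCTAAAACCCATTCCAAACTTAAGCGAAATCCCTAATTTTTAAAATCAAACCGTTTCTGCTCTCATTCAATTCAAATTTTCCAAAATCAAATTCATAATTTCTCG
AGO4_Trans3803: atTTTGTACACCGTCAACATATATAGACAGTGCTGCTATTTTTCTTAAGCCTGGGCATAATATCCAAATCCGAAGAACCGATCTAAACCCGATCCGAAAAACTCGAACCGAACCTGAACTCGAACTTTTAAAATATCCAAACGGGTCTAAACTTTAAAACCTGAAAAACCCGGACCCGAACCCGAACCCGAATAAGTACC
AGO4_Trans299: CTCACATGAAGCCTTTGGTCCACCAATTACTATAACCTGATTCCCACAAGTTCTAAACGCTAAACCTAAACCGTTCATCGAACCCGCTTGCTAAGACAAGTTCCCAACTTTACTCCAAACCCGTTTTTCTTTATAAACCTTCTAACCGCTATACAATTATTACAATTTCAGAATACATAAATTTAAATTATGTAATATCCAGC

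AGO4_Trans3686 and AGO4_Trans299 lie wholly inside their partners. AGO4_Trans2163 shares 265 of its 294 bases and AGO4_Trans3803 shares 198 of 200. AGO4_Trans3686 had 0 AGO4 reads in *ago4* and 36 in Col-0, and its partner had 0 and 1 Pol V reads in *nrpe1* repeats 1 and 2, against 124 and 127 in Col-0. AGO4_Trans2163 had 0 AGO4 reads in *ago4* and 48 in Col-0, with 0 and 0 Pol V reads at its partner in *nrpe1* and 279 and 187 in Col-0. AGO4_Trans3803 had 0 AGO4 reads in *ago4* and 30 in Col-0, with 0 and 0 Pol V reads in *nrpe1* and 97 and 180 in Col-0. All 4 had AGO4 and Pol V reads in Col-0 and at most 1 read in any mutant library, and AGO4_Trans299, with 0 AGO4 reads in *ago4* and 29 in Col-0, had 0 and 0 Pol V reads in *nrpe1* and 74 and 40 in Col-0.

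In 3 members both ends lay almost exactly where those of the partner did, although the ends were called from separate immunoprecipitations. These were the 3 closest of all members. The 100 bases on either side of the 5′ end of each are shown, with the bases inside both the AGO4-bound and the Pol V transcript in capitals. The capitals begin where both transcripts, as called from reads, are present. Sonication and random priming did not capture the ends of intact RNAs, so shared start sites of RNA are not shown. The windows are chr3:21437694-21437893 on the minus strand, chr1:21743750-21743949 on the plus strand and chr5:6072355-6072554 on the plus strand.
AGO4_Trans2354: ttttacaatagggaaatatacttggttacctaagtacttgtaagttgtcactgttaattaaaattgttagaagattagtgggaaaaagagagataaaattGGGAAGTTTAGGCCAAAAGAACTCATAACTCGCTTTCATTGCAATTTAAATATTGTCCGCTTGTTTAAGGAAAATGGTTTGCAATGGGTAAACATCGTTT
AGO4_Trans693: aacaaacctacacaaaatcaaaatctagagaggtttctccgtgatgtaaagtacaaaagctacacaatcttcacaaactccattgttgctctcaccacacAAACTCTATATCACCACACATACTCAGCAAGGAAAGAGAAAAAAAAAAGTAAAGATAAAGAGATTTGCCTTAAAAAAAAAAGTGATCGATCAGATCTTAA
AGO4_Trans3231: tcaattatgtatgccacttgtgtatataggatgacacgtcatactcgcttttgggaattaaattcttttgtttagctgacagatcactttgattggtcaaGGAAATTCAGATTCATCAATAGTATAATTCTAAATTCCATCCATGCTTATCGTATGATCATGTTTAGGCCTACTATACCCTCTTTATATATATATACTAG

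AGO4_Trans2354 (chr3:21437535-21437793) matched PVTrans2832 at both ends to the base. It had 0 AGO4 reads in *ago4* and 25 in Col-0, and its partner had 0 and 0 Pol V reads in *nrpe1* and 64 and 47 in Col-0. AGO4_Trans693 (chr1:21743850-21744204) started 1 bp inside PVTrans834 and ended with it. It had 0 AGO4 reads in *ago4* and 17 in Col-0, and 0 and 0 Pol V reads in *nrpe1* and 70 and 31 in Col-0. AGO4_Trans3231 (chr5:6072455-6072670) started with PVTrans3654 and ended 3 bp before it, with 0 AGO4 reads in *ago4* and 7 in Col-0, and 0 and 0 Pol V reads in *nrpe1* and 19 and 25 in Col-0. Each of the 3 was free of mutant reads in every library.

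AGO4 reads at the 1051 members were few in both genotypes and nearly absent from *ago4*. In *ago4* the member with the fewest reads had 0, the median 0 and the highest 25, against 5, 15 and 259 in Col-0. In sum there were 337 reads in *ago4* and 19539 in Col-0. No read was seen in *ago4* at 941 members (89.5%, Wilson 95% interval 87.5 to 91.2%), against 72.7% of all AGO4-bound transcripts and 66.5% of the 2889 that are not members. At most 3 reads were seen in *ago4* at 1029 members (97.9%), against 90.1% of all and 87.3% of the others. With *ago4* taken as at least 3 reads, the median member was at least 5-fold lower in *ago4*. A 6-fold difference by that measure was reached by 377 members (35.9%), against 44.4% of all AGO4-bound transcripts, and with a median of 15 reads the measure cannot exceed 5-fold at the median member. By the plain ratio of reads, 0 of the 3940 listed transcripts were under 6-fold, the limit at which the list was called. The floor therefore sets these values. With deduplicated reads the median was 2.67-fold and 81 members reached 6-fold, and with 1 read added in both genotypes the median was 14-fold and 1035 reached it. The members thus had zero *ago4* reads more often, and passed 6-fold less often, than the whole list. The share with zero reads was not particular to them. It was 86.3% for both-strand AGO4-bound transcripts on a Pol V transcript of their strand. Single-strand ones with Pol V on the other strand only had 88.9%, and single-strand ones without a Pol V transcript had 59.6%. Whether the shares differ was not tested, because transcripts are not replicates and there was 1 library per genotype. Without duplicate reads the members had 191 reads in *ago4* and 10293 in Col-0.

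The 3 members with the most AGO4 reads in Col-0 also had many in *ago4*. AGO4_Trans2562, the longest at 6632 bp (chr4:5056603-5063234, minus strand), lies over 2 pseudogenes, 50670 bp from the nearest protein-coding gene. It had 18 reads in *ago4* and 259 in Col-0, and its partner PVTrans3114 had 66 and 14 Pol V reads in *nrpe1* and 788 and 259 in Col-0. AGO4_Trans279 (chr1:8771300-8773687, plus strand), sense to the gene AT1G24800 and antisense to AT1G24807, had 25 reads in *ago4*, the most of any member, and 171 in Col-0. Its partner PVTrans161 had 52 and 18 Pol V reads in *nrpe1* and 526 and 425 in Col-0. AGO4_Trans1952 (chr3:9405255-9406093, plus strand) lies on AOC1, which encodes allene oxide cyclase, an enzyme of jasmonate synthesis, in the sense direction. It had 13 reads in *ago4* and 164 in Col-0. Only 9.65% of it was shared with PVTrans2222, which had 0 and 0 Pol V reads in *nrpe1* and 14 and 33 in Col-0, and it began 758 bp upstream of that transcript. It was also the member with the densest AGO4 reads in Col-0, 19.5 per 100 bp, followed by AGO4_Trans3686 with 16.6 and AGO4_Trans2163 with 16.3. AGO4_Trans1436 (chr2:11270968-11272631, plus strand), on AT2G26500 in the sense direction, came next in *ago4* reads after AGO4_Trans2562, with 14 in *ago4* and 112 in Col-0, and its partner PVTrans1817 had 4 and 5 Pol V reads in *nrpe1* and 74 and 35 in Col-0. Reads of near-identical gene copies cannot be told apart with certainty, so values at members of gene families, AOC1 among them, are uncertain.

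**Figure D1:**
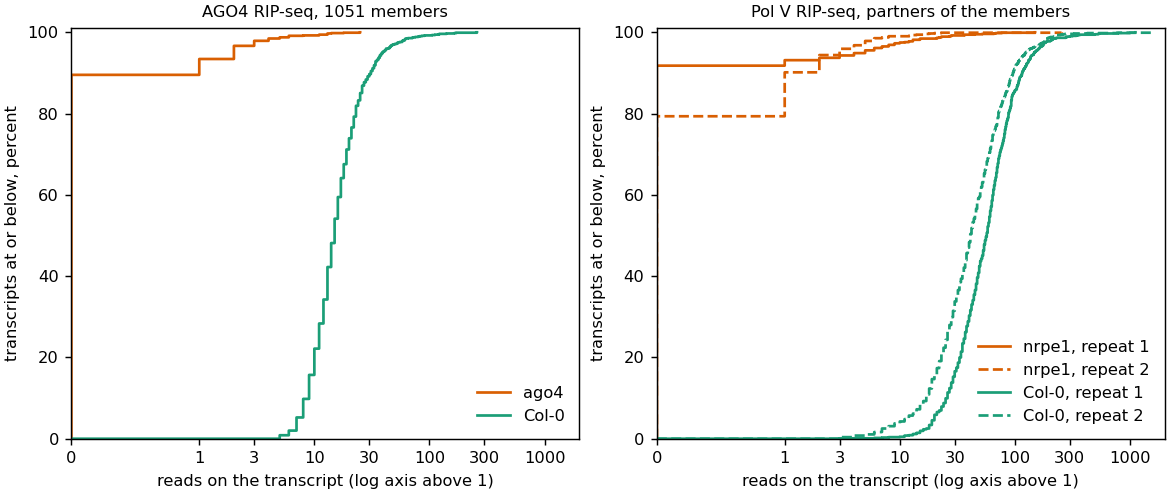
Percent of members (AGO4 RIP-seq, left) and of partners (Pol V RIP-seq, right) with at most the number of reads on the horizontal axis, which is logarithmic above 1, as a line for each library (mutants orange, Col-0 green). The mutant lines start high at 0 reads, and the medians were 0 AGO4 reads in ago4 and 15 in Col-0.

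Members overlapped 1040 of the 4502 Pol V transcripts (23.1%) on the same strand. Of these, 1036 were the partner of a member by the longest overlap, 15 of them of a pair of members, and the remaining 4 were touched by a member with a longer overlap elsewhere. The values of this paragraph and the next are over all 1040. In *nrpe1* the median transcript had 0 and 0 reads in repeats 1 and 2 (range 0 to 150 and 0 to 256), against 57 and 41 reads in Col-0 (range 3 to 1115 and 3 to 1562). The other Pol V transcripts had medians of 0 and 0 in *nrpe1* and of 41 and 30 in Col-0, so those under members were the more abundantly recovered. Neither *nrpe1* library had a read at 786 of the 1040 (75.6%), against 84.4% of the other Pol V transcripts. With *nrpe1* taken as at least 3 reads, the median of the 1040 was at least 15.6-fold lower in *nrpe1* (95% interval 14.8 to 16.3), and the median of the others was at least 11.3-fold lower. The floor sets these values, and with 1 read added in both genotypes the median of the 1040 was 42.5-fold. In edgeR's quasi-likelihood test with Benjamini-Hochberg adjustment over all 4502 transcripts, 1039 of 1040 were lower in *nrpe1*, as were 99.9% of the whole list, which was selected for that difference. With the repeat as a block, 938 were called. The exception was PVTrans2554 on chromosome 3, from 15608109 to 15614774 on the minus strand, with 150 and 256 reads in *nrpe1* and 1000 and 1562 in Col-0 (adjusted p = 0.0934, edgeR). The calls rest on treating the libraries as equally deep: with TMM normalization or DESeq2's own size factors, which assume that most transcripts are unchanged, 0 of the 1040 were called at the same threshold, although 756 and 540 were lower in *nrpe1* at an unadjusted p under 0.05. The Col-0 repeats differed too. The log2 ratio of repeat 1 to repeat 2 had a median of 0.42 and an SD of 1.02 over the 1040.

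Pol V transcripts that were more abundant had a single-strand AGO4-bound transcript more often. The 4502 Pol V transcripts were put in 4 bins of nearly equal number by mean reads in Col-0 (14.5 to 27.5, 27.5 to 37, 37.5 to 55.5 and 55.5 to 1722.5 reads), of which 13.0%, 15.7%, 24.7% and 39.0% lay under a member of the same strand. Any AGO4-bound transcript of the same strand was present on 17.5%, 23.6%, 35.5% and 66.2% of the same bins. Both lists were called by a minimum of reads, and the part of that limit in the trend was not tested.

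Across the 1051 members, AGO4 reads in Col-0 followed the Pol V reads of the partner loosely. Spearman's rho was 0.42 with the mean of both Col-0 repeats (Pearson's r of log2 values 0.47), 0.41 with repeat 1 and 0.33 with repeat 2, while the Pol V repeats had a rho of 0.50 with each other. Longer members had more AGO4 reads (rho 0.53), and per 100 bp the rho of AGO4 with Pol V reads was 0.32. At the 496 members with Pol V on the other strand, AGO4 reads had a rho of 0.48 with Pol V reads of their own strand. With Pol V reads of the other strand the rho was 0.10. At the same 496, AGO4 reads had a rho of 0.57 with member length, and per 100 bp the own-strand rho was 0.32. The other-strand rho was not computed per 100 bp, and members were chosen for having no AGO4-bound transcript on that strand. All points share the same libraries, and these values are descriptions without a test. In 4 bins of the members by AGO4 reads in Col-0 (5 to 11, 11 to 15, 15 to 21 and 21 to 259), the median partner had 42 and 34, 49 and 37, 60.5 and 41.5, and 83 and 61 Pol V reads in Col-0 repeats 1 and 2. Median lengths of the members were 378, 416, 528 and 761 bp in the same bins, and no *ago4* read was seen at 98.9%, 93.9%, 92.0% and 73.4% of them.

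**Figure D2:**
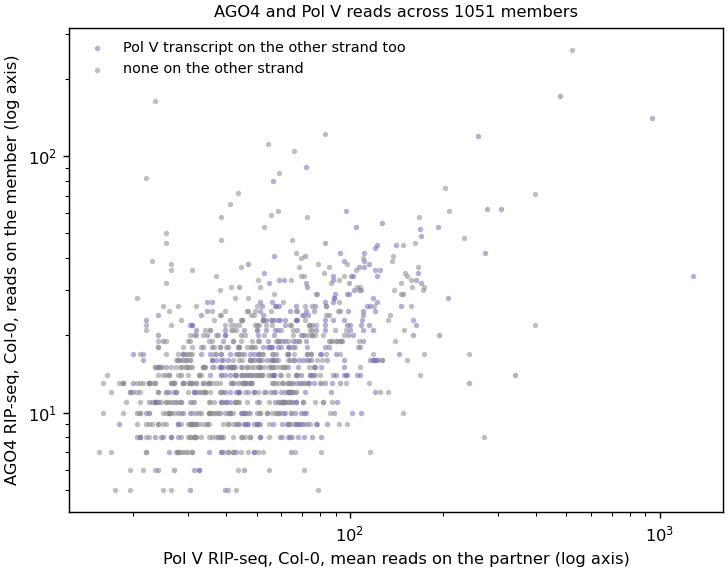
AGO4 reads in Col-0 of each member against the mean Pol V reads in Col-0 of its partner, both axes on a log scale, 1 point per member, coloured by whether Pol V had a transcript on the other strand too. The cloud rises to the right with a wide spread (Spearman's rho 0.42 over 1051 members).

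AGO4-bound transcripts were mostly the shorter of the pair. Members had a median length of 478 bp (133 to 6632 bp), and 279 of them (26.5%) were longer than their partner. The shared stretch had a median of 392 bp, which was 98.3% of the member and 66.6% of the partner at the medians. Along the direction of transcription, the 5′ end of the AGO4-bound transcript lay a median of 33 bp downstream of that of the partner (95% interval 27 to 40). Its 3′ end lay a median of 66 bp upstream of the partner's (53 to 81). Where at least 50% of both transcripts overlapped (668 members), these medians were 16 bp for the 5′ ends and -34 bp for the 3′ ends. The spread was wide, and the quartiles of the 5′ offset were -28 and 171.5 bp and those of the 3′ offset -266.5 and 10.5 bp, negative values lying upstream.

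In all, 481 members (45.8%) lay inside their partner and 103 (9.80%) spanned it. Another 267 (25.4%) both started and ended upstream of the partner's ends, and 200 (19.0%) both started and ended downstream of them. The 5′ ends were within 100 bp of each other in 544 members (51.8%), the 3′ ends in 472 (44.9%), and both in 249 (23.7%). The median offsets shrank as AGO4 reads increased, but close ends were not more frequent in the last bin than in the first. Over the same bins, both ends were within 100 bp in 24.0%, 27.0%, 25.2% and 18.6% of members. The member spanned its partner in 6.08%, 7.22%, 6.87% and 19.0%. From the bin with the fewest AGO4 reads to the one with the most, the median 5′ offset was 61, 39, 26 and 10 bp, the median 3′ offset was -91, -72, -68 and -28 bp, and the AGO4-bound transcript covered 57.3%, 63.5%, 66.6% and 78.9% of the partner. The median number of AGO4 reads, 15, was below the Pol V reads of the partner, and the part of read number in the offsets was not tested.

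**Figure D3:**
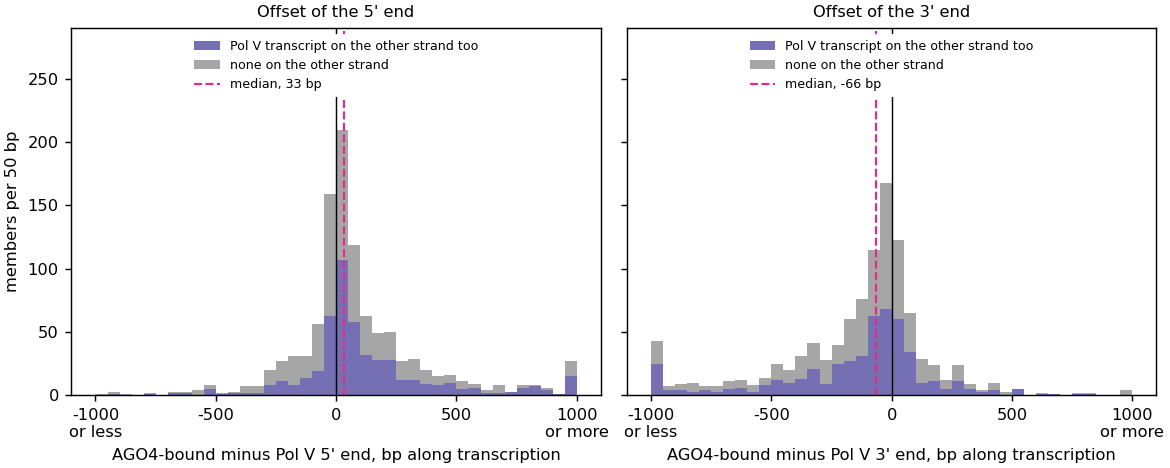
Distances in bp between the 5′ ends and between the 3′ ends of each member and its partner along the direction of transcription, AGO4 minus Pol V, as stacked histograms of members with Pol V on the other strand too (purple) or not (grey), whose end bars hold distances of 1000 bp or more. Medians, drawn as dashed lines, were 33 bp for the 5′ ends and -66 bp for the 3′ ends.

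The shortest and the longest members show the extremes. AGO4_Trans3786, the shortest at 133 bp (chr5:21969029-21969161, plus strand), began 142 bp after PVTrans4424 and ended 13 bp before it. It had 0 AGO4 reads in *ago4* and 11 in Col-0, and its partner had 0 and 0 Pol V reads in *nrpe1* and 65 and 90 in Col-0. It lay 967 bp downstream of ILL3, which encodes an IAA-amino acid hydrolase-like protein. AGO4_Trans2562 began 153 bp after its partner and ended 151 bp beyond it.

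**Figure D4:**
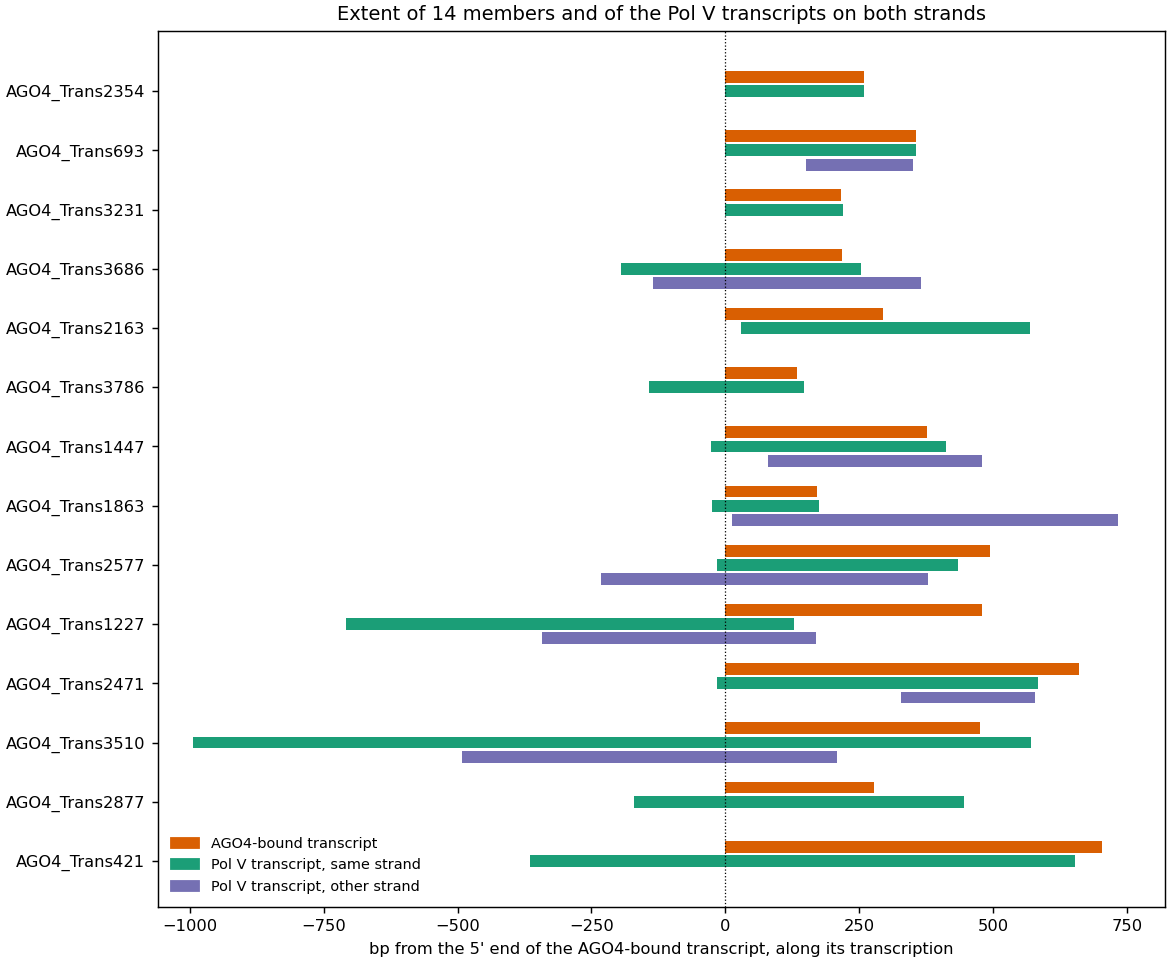
Maps of 14 named members, with distance in bp from the 5′ end of the AGO4-bound transcript on the horizontal axis, showing the AGO4-bound transcript (orange), the Pol V transcript of the same strand (green) and any Pol V transcript of the other strand (purple). AGO4_Trans2354 and PVTrans2832 share both ends, while AGO4_Trans3786 begins 142 bp after its partner.

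Pol V transcripts often occur on both strands of a locus, and it was asked on which of them an AGO4-bound transcript was called. Pol V also had a transcript on the other strand at 496 members (47.2%, Wilson 95% interval 44.2 to 50.2%) and none at 555 (52.8%). That other transcript covered a median of 89.9% of the member, and 181 members (36.5% of the 496) lay wholly within it. By contrast, among the 578 AGO4-bound transcripts that overlapped on both strands and lay on a Pol V transcript of their strand, Pol V was on the other strand at 524 (90.7%). Where Pol V had a transcript on 1 strand only under a single-strand AGO4-bound transcript, the strand of AGO4 was that of Pol V in 555 of 654 cases (84.9%, 81.9 to 87.4%). The remaining 99 had Pol V on the opposite strand only, and with a median of 12 AGO4 reads in Col-0 they had fewer than the members. Of 1186 overlapping opposite-strand pairs of Pol V transcripts, 270 (22.8%) had AGO4 on both, 511 (43.1%) on 1 and 405 (34.1%) on neither.

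Members with Pol V on the other strand had a median of 15.5 AGO4 reads in Col-0 and a length of 494 bp, and those without it had 14 reads and 455 bp. No *ago4* read was seen at 92.3% of the members with it and at 87.0% of those without. Their partners had medians of 63 and 47 Pol V reads in Col-0 with it and of 50 and 38 without. The AGO4 reads of both kinds of member overlapped widely, from 5 to 171 with it and from 5 to 259 without. The 5′ offset was larger where Pol V was on both strands, with a median of 49.5 bp (95% interval 34 to 63) against 18 bp (10 to 31), and the 3′ offset was alike at -66 and -65 bp. The difference in 5′ offset was not tested. Protein-coding genes lay under 14.5% of the members with Pol V on the other strand and under 35.5% of those without.

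At the 496 members with Pol V on both strands, the strand that AGO4 was on carried more Pol V reads at most loci but not at all. Reads and lengths here are those of whole Pol V transcripts, not of the stretch shared with the member. The median was 63 and 47 reads in Col-0 repeats 1 and 2 on the AGO4 strand, against 45.5 and 33 on the other strand. Per base the log2 ratio of the AGO4 strand to the other had a median of 0.36 in repeat 1 (95% interval 0.26 to 0.45) and 0.47 in repeat 2 (0.36 to 0.60), with SDs over members of 1.08 and 1.24. The AGO4 strand was the higher at 321 members (64.7%) in repeat 1 and at 323 (65.1%) in repeat 2. It was higher in both repeats at 232 (46.8%) and lower in both at 84 (16.9%). At the remaining 180 (36.3%) the repeats differed in direction or the strands were equal in a repeat. The ratios of the repeats had a Pearson's r of 0.41 over the members, so a single locus was only loosely repeatable. The share of members with AGO4 on the strand with more Pol V reads was larger where the imbalance was larger. Where the mean log2 ratio was under 0.5 in size, AGO4 was on the higher strand at 116 of 191 members (60.7%), and at 96 of 146 (65.8%), 93 of 120 (77.5%) and 37 of 39 (94.9%) where it was 0.5 to 1, 1 to 2 and 2 or more. A difference of 4-fold or more in both repeats was in favour of the AGO4 strand at 16 members and of the other strand at 1. No test was run over the transcripts or over the repeats. AGO4-bound transcripts were called by a minimum of reads, and members have none called on the other strand. The part of that limit in the trend was not tested. Counted over the 511 opposite pairs with AGO4 on 1 strand, AGO4 was on the strand with denser Pol V reads in 338 (66.1%, 61.9 to 70.1%). 

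**Figure D5:**
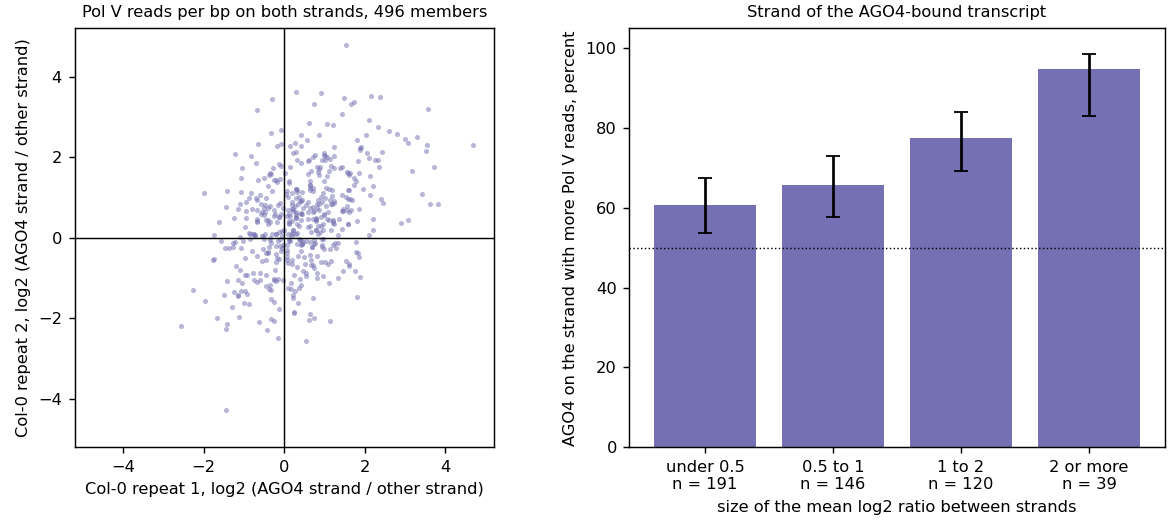
Left, log2 ratio of reads per bp of the whole Pol V transcript on the AGO4 strand to that on the other strand in Col-0 repeat 1 and repeat 2, 1 point per member. Right, percent of members with AGO4 on the strand with more Pol V reads, by the size of the mean log2 ratio, with Wilson 95% intervals and a dotted line at 50%; the share was 60.7% where the ratio was under 0.5 and 94.9% where it was 2 or more.

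The highest mean ratios were at AGO4_Trans1863 (chr3:6771198-6771369, plus strand), AGO4_Trans2577 (chr4:5256993-5257486, plus strand) and AGO4_Trans1447 (chr2:11669204-11669579, minus strand), the last lying 49 bp upstream of AT2G27260. AGO4_Trans2577 had 0 AGO4 reads in *ago4* and 23 in Col-0. Its partner PVTrans3129 had 225 and 95 reads in the Col-0 repeats, against 26 and 14 for PVTrans3128 on the other strand, log2 ratios per base of 3.56 and 3.21. AGO4_Trans1863 had log2 ratios of 4.68 and 2.31, from 100 and 66 reads of PVTrans2125 against 14 and 48 of the longer PVTrans2126. AGO4_Trans1447 had ratios of 1.53 and 4.78, from 137 and 203 reads of PVTrans1839 against 45 and 7 of PVTrans1838. The repeats were close at AGO4_Trans2577 and far apart at the other two.

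The partner had fewer reads than the other-strand Pol V transcript at AGO4_Trans1227 (chr2:6706652-6707130, plus strand), AGO4_Trans2471 (chr4:1380808-1381468, minus strand) and AGO4_Trans3510 (chr5:14756692-14757167, plus strand), which had the lowest mean ratios. These members shared 15.3%, 97.3% and 30.4% of the partner, and the other-strand transcript covered 34.9%, 38.6% and 33.6% of the member. Reads within the shared stretch were not counted. PVTrans1556 under AGO4_Trans1227 had 20 and 19 reads in the Col-0 repeats, against 71 and 52 on the other strand, with log2 ratios of -2.56 and -2.18. The ratios were -1.43 and -2.27 at AGO4_Trans2471, from 27 and 18 reads against 31 and 37, and -1.45 and -4.27 at AGO4_Trans3510, from 80 and 6 reads against 85 and 45. These 3 members had 0 AGO4 reads in *ago4* and 12, 11 and 14 in Col-0, below the median of all members.

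Members were spread over the 5 chromosomes, with 8.31, 9.85, 8.48, 9.20 and 8.67 per Mb on chromosomes 1 to 5. Windows of 500 kb with more pseudogenes than protein-coding genes, used as a mark of the pericentromeres, held 154 members (14.7%, 12.6 to 16.9%), against 6.37% of the other AGO4-bound transcripts and 8.58% of all. Protein-coding genes lay under 269 members (25.6%), against 50.9% of all AGO4-bound transcripts, pseudogenes under 123 (11.7%, against 8.73%), and no annotated gene under 609 (57.9%, against 37.1%). The pericentromeric and gene-free shares were not particular to the members. They were 14.2% and 59.0% for both-strand AGO4-bound transcripts on a Pol V transcript of their strand. With Pol V on the other strand only they were 11.1% and 67.7%, and for single-strand ones without Pol V 3.48% and 19.1%. Pol V transcripts were called from reads outside genes, and the part of that calling in the share on genes was not tested. Of the members clear of protein-coding genes, 496 lay upstream of the nearest such gene and 286 downstream of it, against 1125 and 809 of all AGO4-bound transcripts. For these 782 the median distance to that gene was 690 bp, against 609 bp. Of all members, 475 (45.2%) touched the 1 kb before a transcription start, against 44.6% of all AGO4-bound transcripts.

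Members on protein-coding genes differed from the rest in their mutant reads. A read in *ago4* was seen at 55 of the 269 (20.4%), against 55 of the 782 off protein-coding genes (7.03%). The partner had no Pol V read in either *nrpe1* library for 66.2% of the 269, against 78.4% of the 782. By direction, an *ago4* read was seen at 32.5% of the 80 members in the sense direction of a gene only, at 13.1% of the 175 antisense to one only, and at 42.9% of the 14 that were both. Sense members thus had *ago4* reads more often than antisense ones, a difference that was not tested. The sense, antisense and both groups also differed in median AGO4 reads in Col-0 (18.5, 15 and 43) and in median length (587.5, 531 and 1286.5 bp). Members off protein-coding genes had medians of 14 reads and 444 bp. The part of read number and length in these shares was not tested. Of the 22 members with more than 3 *ago4* reads, 16 were on protein-coding genes. The part of gene transcripts in these reads was not tested. Pol V had a transcript on the other strand at 26.8% of the members on protein-coding genes and at 54.2% of the rest.

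Known targets of the pathway were looked up within 2500 bp, a list chosen after the data had been seen. FWA, a homeodomain gene silenced by methylation of repeats at its start, had AGO4_Trans2877 (chr4:13038394-13038671, minus strand), antisense to the gene, running between 311 and 34 bp past the gene's start. It had 0 AGO4 reads in *ago4* and 10 in Col-0, and its partner PVTrans3479 had 0 and 3 Pol V reads in *nrpe1* and 65 and 47 in Col-0. EPF2, which encodes a peptide that limits stomatal density, had AGO4_Trans421 (chr1:12470650-12471352, minus strand) 1516 to 2218 bp upstream of its start. It had 0 AGO4 reads in *ago4* and 12 in Col-0, with 0 and 0 Pol V reads of PVTrans338 in *nrpe1* and 59 and 33 in Col-0. At neither gene did the member have AGO4 reads in *ago4*, and none of the members lay near SDC, ROS1 or MEA. The bases around the 5′ end of the EPF2 member (chr1:12471253-12471452, minus strand) are shown because it is the member nearest that gene. It begins 365 bp inside its partner, so all the bases shown lie in PVTrans338 and the capitals mark those that are AGO4-bound too.
AGO4_Trans421: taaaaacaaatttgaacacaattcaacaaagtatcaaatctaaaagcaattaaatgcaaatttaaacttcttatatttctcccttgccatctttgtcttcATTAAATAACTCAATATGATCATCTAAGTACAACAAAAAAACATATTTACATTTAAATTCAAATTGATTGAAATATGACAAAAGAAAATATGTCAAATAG

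The loci that the study targeted with primers were matched to 27 Pol V transcripts by number alone. Of these, 7 carried a member, 8 carried only AGO4-bound transcripts overlapping on both strands and 12 carried none of their own strand. At these members *ago4* had 0 AGO4 reads except AGO4_Trans1530, with 3, and Col-0 had 6 to 71. AGO4_Trans3453 and AGO4_Trans3454 both lay on PVTrans3958, with 0 AGO4 reads each in *ago4* and 71 and 22 in Col-0, and that Pol V transcript had 0 and 1 reads in *nrpe1* and 542 and 250 in Col-0, at least 132-fold lower in *nrpe1*. AGO4_Trans1530 had 20 AGO4 reads in Col-0 and began at the same base as PVTrans1927, which had 0 and 0 Pol V reads in *nrpe1* and 285 and 102 in Col-0, against 87 and 47 for PVTrans1926 on the other strand (log2 ratios 2.14 and 1.54). AGO4_Trans1438 also began with its partner, PVTrans1818, and ended 339 bp short of it. It had 0 AGO4 reads in *ago4* and 12 in Col-0, and 0 and 0 Pol V reads in *nrpe1* and 85 and 41 in Col-0. AGO4_Trans389, AGO4_Trans1179, AGO4_Trans2592 and AGO4_Trans3592 had 0 AGO4 reads in *ago4* and 6, 17, 13 and 22 in Col-0. Both lists had been selected for few reads in the mutants.

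The bases at the ends of the members were not those of their interior. The first base was G in 34.6% and T in 10.7%, whereas G made up 17.1% and T 30.6% of all bases of the members. The last base was C in 48.4% and A in 9.80%. The other AGO4-bound transcripts had G first in 33.2% and C last in 48.3%, so this was not particular to the members, and among the partners G was first in 26.7% and C last in 36.9%. The ends were set by where reads ended, and the part of library preparation was not tested. GC content had a median of 34.9% in the members and 35.3% in the other AGO4-bound transcripts, and the RNA strand held 13.1 CHH sites per 100 bp against 13.3 in the others. The complementary strand held a median of 12.0 CHH sites per 100 bp against 12.5. CG sites had a median of 2.56 per 100 bp against 2.22. These differences were not tested.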

How the data were processed

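The study sequenced 9 libraries, of which 6 were used, the Pol V RIP-seq of *nrpe1* and Col-0 and the AGO4 RIP-seq of *ago4* and Col-0, and 3 were not analysed here. The authors mapped reads to TAIR10 with SOAPsplice and called Pol V transcripts from reads outside annotated genes, pooled over repeats, by read number, density, the Col-0 to *nrpe1* difference and a negative binomial test in NBPSeq. AGO4-bound transcripts were called likewise but with a minimum of 4 reads in Col-0 and a 6-fold excess over *ago4*, and without that test. The deposited read counts are raw counts per transcript and library, with deduplicated counts beside them for AGO4. The p-value and q-value columns hold the authors' own test and were not used. The tables hold 0 further columns of library values.

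The base composition at transcript ends showed that start and stop are both bases of the transcript, so lengths here are 1 bp more than the deposited length. The members and gene lists were chosen with earlier results of these data known. The partner was the Pol V transcript with the longest overlap. *nrpe1* was compared with Col-0 by edgeR's quasi-likelihood test over all 4502 Pol V transcripts with equal library sizes, without a block, at an adjusted p of 0.05 (biological coefficient of variation 0.522). The design text pairs *nrpe1* and Col-0 within a repeat, and their deviations from the genotype means had a Pearson's r of 0.11. That value cannot show whether the pairing matters, because neither *nrpe1* library had a read at 82.3% of the 4502 transcripts. A mutant with fewer than 3 reads was taken as 3 reads in folds. Shares have Wilson and medians order-statistic 95% intervals. Transposons were not analysed here.

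Named members were those with the most AGO4 reads, in number, per 100 bp or in *ago4*, the longest and shortest, those with the extreme strand ratios or closest ends, and those at primer loci, 3 of each kind where ranked. Known targets were added after the data had been seen. Alternatives changed the normalization, test, block, read filter, pseudocount, overlap rule, window and repeats used. The code was checked on simulated data. Python 3.11.15, numpy 2.4.6, scipy 1.17.1, pandas 2.3.3, matplotlib 3.10.9, R 4.3.3, edgeR 4.0.16 and DESeq2 1.42.0 were used.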

Additional observations from a re-analysis of the deposited data

How the results depend on the processing

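The number of members was 978, 719 and 1043 under stricter overlap rules, and 496 members with Pol V on the other strand became 431 or 502. The calls on partners rested on the scaling. TMM called 0 (756 lower and 1 higher at an unadjusted p under 0.05) and DESeq2 with its own size factors called 0 (540 lower unadjusted, 173 adjusted values missing), while DESeq2 with size factors of 1 called 1039 of 1040. The median log2 change of all transcripts was -7.96 with equal sizes, -7.05 with TMM and -3.63 with DESeq2's size factors. With the repeat number as a replicate block, 938 of 1040 partners were called. With at least 10 reads in each Col-0 library, 994 of 995 were called.

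A pseudocount of 1 in place of the floor of 3 reads gave a median fold of the partners of 42.5, against 15.6, and without 1 replicate it was 13.5 to 17.7. For AGO4 reads the fold was 14 with the pseudocount and 2.67 with deduplicated reads, against 5, and the members past 6-fold numbered 1035 and 81, against 377. The 5′ and 3′ offsets were 16 and -34 bp where at least 50% of both transcripts overlapped (668 members), and 31 and -65 bp in pairs of 1 to 1. Spearman's rho of AGO4 with Pol V reads was 0.33 to 0.41 without 1 replicate and 0.32 per 100 bp. The share in pericentromeric windows was 17.2% with 1 Mb windows. The median strand ratio was 0.36 to 0.47 without 1 replicate. Of 30 alternatives, 18 were labelled as unchanged. The rule was wide for counts, so that 719 members against 1051 passed. Where repeats were averaged it allowed the spread between them, so the tally is not a measure of robustness. The causes of the changes under the others were not tested. Depth limits folds, since the median member had 15 AGO4 reads and 1 library per genotype.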
